A study of Danio rerio with 24 samples.

Results

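Gene IDs of the retinoid pathway were followed through all the libraries: the dhrs3 copies dhrs3a (ENSDARG00000044982) and dhrs3b (ENSDARG00000044803), the lrat copy lrata (ENSDARG00000037278), and CRABP1 (ENSDARG00000035904). They were chosen by ID, with earlier results of these data known, as 4 of the 33737 gene IDs in the deposited tables. All 4 were measured in each group. The symbols dhrs3a, dhrs3b and lrata are those of the study. CRABP1 is the symbol in the gene name table used here, which gives the same symbol to a second ID (ENSDARG00000045926), and which zebrafish crabp1 copy each ID stands for was not settled.

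Retinoic acid (RA) is made from vitamin A by the oxidation of retinol to retinaldehyde and of retinaldehyde to RA, and it acts through nuclear receptors (RARs) bound to their target genes. DHRS3 works against this synthesis by reducing retinaldehyde back to retinol, and LRAT removes retinol by joining it to a fatty acid for storage as retinyl ester. CRABP1 is a small protein that binds RA in the cytoplasm. DHRS3 and LRAT are both known as genes that RA itself can raise, which gives the pathway a feedback loop.

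The study asked which genes RA controls in the zebrafish endoderm. Embryos of Tg(sox17:GFP) adults, in which the sox17 promoter drives GFP in endodermal cells, were given DMSO (the solvent control), RA or BMS493 (an inverse agonist that holds RARs in their repressing state) from the 2-cell stage to the 3-somite stage. GFP+ cells, taken as endoderm, were sorted from the embryos of each treatment, and GFP- cells (non-endodermal cells, NE) were sorted from the DMSO embryos. No group without DMSO, RA or BMS493 was analysed here. Cells were collected at the 3-somite (3-S) and the 8-somite (8-S) stage, which gave 8 groups of 3 libraries. By the study's methods the agents were washed off at 3-S, so that stage and time since the treatment cannot be told apart at 8-S. The labels do not say whether the 3 libraries of a group came from separate clutches, so the p-values measure the spread between these libraries, which may be technical.

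The 24 libraries held between 9971059 and 17806766 reads in genes (median 12791573). Of the 7 fixed endoderm markers 3 matched a gene ID (FOXA2, foxa3 and GATA5). The others on the list, sox17, sox32, foxa1 and gata6, had no match and were not followed. All 3 matched markers were called higher in DMSO endoderm than in NE at both stages. Their summed level was 8904 to 11942 normalised counts in DMSO endoderm and 543 to 836 in NE at 3-S, and 5397 to 8802 against 416 to 870 at 8-S. Markers of other tissues were not at 0 in the GFP+ cells. The neural plate list (12 gene IDs) stood at 27.3% of its NE mean in DMSO endoderm at 3-S and at 51.7% at 8-S, and the paraxial mesoderm and tailbud list (7 gene IDs) at 11.8% and 43.7%. The notochord list (8 gene IDs) stood above NE as a sum, at 519% of its NE mean at 3-S and 998% at 8-S. Its members did not all go this way: 1 was called higher and 2 lower in DMSO endoderm at 3-S, and 2 higher and 0 lower at 8-S. One library, BMS493 3-S replicate 2, stood apart in the ratio of reads on the 2 strands (1.11, against 1.03 to 1.05 in the other 3-S libraries and 0.99 to 1.01 at 8-S), and the BMS493 results for dhrs3a and for the ratio of the dhrs3 copies at 3-S are given with and without it. Levels below are counts divided by the library's size factor (normalised counts). They are not divided by gene length, so that levels are compared between groups for one gene and never between genes.

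Under RA the 3 enzyme genes rose at both stages, and CRABP1 was not called. In RA against DMSO at 3-S, 3 of the 4 genes were called (DESeq2, adjusted p under 0.01), where 4.12% of all genes tested were called and 1.93% were called higher. At 8-S the same 3 genes were called, with 2.68% of all genes called and 0.953% called higher. In BMS493 against DMSO only dhrs3a was called, lower at both stages, where 0.173% of genes were called at 3-S, all lower, and 0.387% at 8-S, with 0.381% called lower. These comparisons and those with NE share their DMSO libraries.

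**Figure D1:**
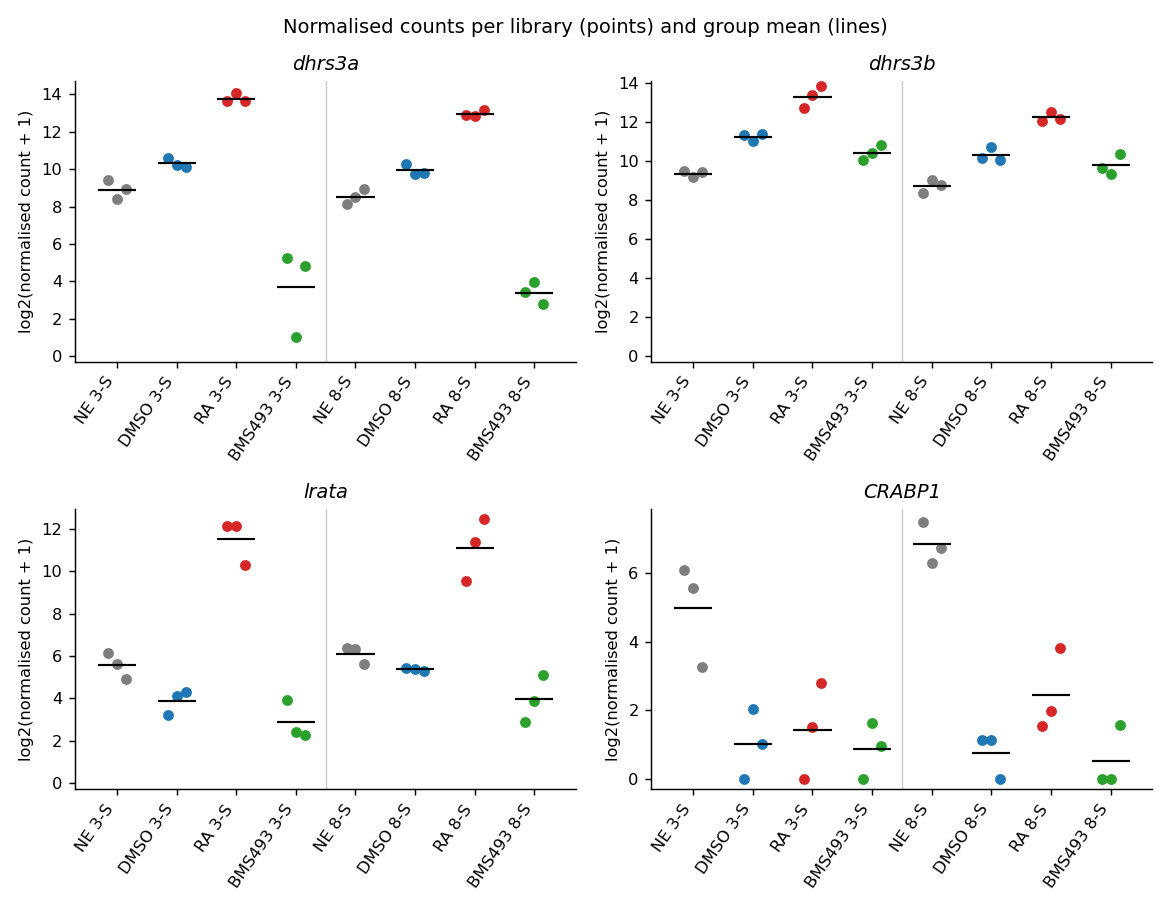
Normalised counts of dhrs3a, dhrs3b, lrata and CRABP1 in each library, as log2(normalised count + 1), with 3 points per group and a line at the mean of the plotted values; groups are NE, DMSO, RA and BMS493 at 3-S (left of the grey line) and 8-S (right). The RA libraries of dhrs3a, dhrs3b and lrata lie above all the other libraries of their stage, the BMS493 libraries of dhrs3a lie below all others, and the NE libraries of CRABP1 lie above all others of their stage.

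dhrs3a had the widest span. At 3-S its DMSO libraries held 1556, 1185 and 1112 normalised counts, and the RA libraries held 12750, 17160 and 12721. The BMS493 libraries held 36.8, 1.06 and 27.0, which are 42, 1 and 28 reads. The 3 treatments did not overlap, and the NE libraries, with 675, 339 and 484, lay between BMS493 and DMSO. RA raised dhrs3a 11.1-fold over DMSO (log2 fold change 3.47, SE 0.43, DESeq2 adjusted p = 2.62e-13), and it fell under BMS493 by 5.87 on the log2 scale (SE 0.47, adjusted p = 2.55e-32), which had the smallest p of the 30 genes called lower in that comparison. BMS493 3-S replicate 2, the library with the aberrant strand ratio, held the single read; without it the log2 fold change was -5.33, and without BMS493 3-S replicate 1 it was -6.49, with the call kept in each case.

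At 8-S dhrs3a kept this order of the groups. The DMSO libraries held 1221, 866 and 882 normalised counts, the RA libraries 7675, 7417 and 9041, and the BMS493 libraries 9.70, 14.6 and 5.96 (9, 16 and 9 reads). Again no library of one treatment reached into the range of another, and NE, with 278, 367 and 498, lay between BMS493 and DMSO. The RA level was 8.13-fold the DMSO level (log2 fold change 3.02, SE 0.43, adjusted p = 5.79e-10), and the BMS493 level was lower by a log2 fold change of -6.64 (SE 0.50, adjusted p = 1.60e-36, DESeq2), again the smallest p among the 64 genes called lower. Between RA and BMS493 dhrs3a differed 658-fold at 3-S and 799-fold at 8-S in group means, the third largest log2 fold change among the 561 and the 495 genes called higher in RA. The 3-S log2 fold change of RA against BMS493 was 9.34, and 8.80 without BMS493 3-S replicate 2.

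dhrs3b answered RA less and was not called under BMS493. Its 3-S libraries held 2541, 2090 and 2693 normalised counts in DMSO, 6692, 10554 and 14496 in RA, and 1053, 1361 and 1812 in BMS493. At 8-S they held 1152, 1704 and 1065 in DMSO, 4229, 5748 and 4621 in RA, and 799, 635 and 1321 in BMS493. RA and DMSO did not overlap at either stage, whereas BMS493 lay below DMSO at 3-S and overlapped it at 8-S. The rise under RA was 4.33-fold at 3-S (log2 fold change 2.12, SE 0.32, adjusted p = 8.99e-09) and 3.72-fold at 8-S (1.90, SE 0.33, adjusted p = 7.22e-07, DESeq2). Under BMS493 the log2 fold change was -0.79 at 3-S (95% interval -1.43 to -0.16, adjusted p = 0.596) and -0.51 at 8-S (-1.15 to 0.13, adjusted p = 0.999); falls of the size seen for dhrs3a lie outside both intervals. Without BMS493 3-S replicate 2 the 3-S value was -0.77.

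The balance between the dhrs3 copies was then taken within each library, as log2 of (dhrs3a + 1) over (dhrs3b + 1) in normalised counts, which, apart from the 1 added, does not move with the size factor. The 1 added weighs most in BMS493 3-S replicate 2, where dhrs3a had a single read. Its absolute value depends on the lengths of the copies, so only its differences between groups are read. The DMSO libraries had ratios of -0.71, -0.82 and -1.27 at 3-S and of 0.08, -0.97 and -0.27 at 8-S. In RA they were 0.93, 0.70 and -0.19 at 3-S and 0.86, 0.37 and 0.97 at 8-S, above DMSO in each case, and in BMS493 they ran from -9.37 to -4.80 at 3-S and from -7.57 to -5.35 at 8-S, below all others. The mean shift from DMSO was 1.41 at 3-S and 1.12 at 8-S in RA, and -5.80 and -6.00 in BMS493 (exact two-sided permutation test, p = 0.1 for each, the smallest that 3 against 3 allows; 0.15 adjusted over 6 comparisons). The 3-S shift in BMS493 was -4.48 without BMS493 3-S replicate 2 and -6.76 without BMS493 3-S replicate 1, and the 8-S shift was -5.40 without BMS493 8-S replicate 3.

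NE differed from DMSO by 0.49 at 3-S and 0.20 at 8-S in this ratio, with overlapping ranges (exact permutation p = 0.2 and 0.6). With both stages in 1 test and labels permuted within each stage, a test chosen after seeing the data, the shift was 1.27 in RA and -5.90 in BMS493 (exact permutation p = 0.005 for each, the smallest possible, and 0.0075 adjusted over 3 comparisons) and 0.35 in NE (exact permutation p = 0.14). Without BMS493 3-S replicate 2 the BMS493 shift over both stages was -5.24 (exact permutation p = 0.005, the smallest possible). RA and BMS493 were already apart from DMSO at both stages, so the test over both stages could only give its smallest p and adds no support. As a description, dhrs3a moved more than dhrs3b in each direction.

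**Figure D2:**
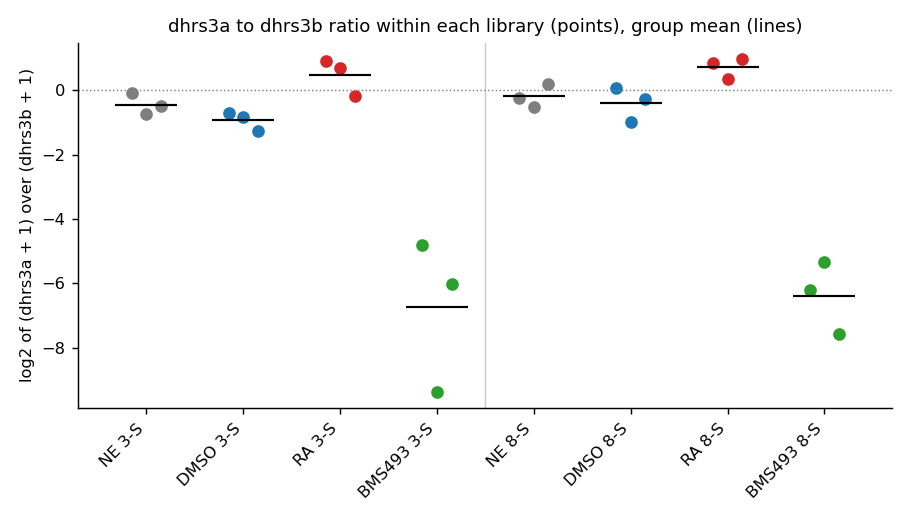
The log2 ratio of dhrs3a to dhrs3b normalised counts (1 added to each) in each library, 3 points per group with a line at the mean, for NE, DMSO, RA and BMS493 at 3-S and 8-S. RA libraries lie above the DMSO libraries of their stage and BMS493 libraries, at -4.80 or lower, lie below every other library.

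lrata was low in all groups without added RA and rose most under RA. Its DMSO libraries held 8.22, 16.6 and 18.8 normalised counts at 3-S and 42.7, 41.1 and 37.8 at 8-S. RA libraries held 4580, 4551 and 1243 at 3-S, and 747, 2654 and 5610 at 8-S. No RA library came near the range of any other group, whose highest library was an NE library at 8-S with 82.9. The rise was 238-fold at 3-S (log2 fold change 7.90, SE 0.64, adjusted p = 3.89e-31), the second largest log2 fold change of the 367 genes called higher, and 74.1-fold at 8-S (6.21, SE 0.62, adjusted p = 1.55e-20, DESeq2), the fifth largest of 171. Without RA 8-S replicate 3, the highest of its group, the 8-S log2 fold change was 5.39 and the call was kept.

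The RA libraries of lrata also spread more than those of the dhrs3 genes. At 8-S the lowest and highest lrata libraries were 747 and 5610, while the dhrs3a libraries of the same samples ran only from 7417 to 9041. In those 3 libraries the summed epidermis markers (7 gene IDs) were 1194, 3252 and 8750 normalised counts and the notochord markers (8 gene IDs) 5317, 17234 and 20571, in the same order as lrata. The blood and endothelium markers, at 1405, 2309 and 2633, had this order too, and the other lists used had other orders. At 3-S lrata was 4580, 4551 and 1243, with the first 2 values close together. The notochord markers there were 32308, 7359 and 5616, in the same order. The paraxial mesoderm and tailbud markers, at 46.0, 82.0 and 103, and the neural plate markers, at 1121, 1331 and 1628, had the reverse order. The epidermis markers, at 2428, 645 and 1166, did not match the lrata order. Nor did the blood and endothelium markers, at 1210, 2670 and 1782. None of the 7 epidermis and none of the 8 notochord gene IDs was called higher in RA than in DMSO by DESeq2 at either stage. Called lower were 1 notochord and 1 epidermis gene ID at 3-S, and 2 notochord and 0 epidermis gene IDs at 8-S. With 3 libraries per stage and several lists, an order can match by chance. The part of these cell types in the lrata values was not tested. Bulk libraries cannot tell more cells of a type from more RNA per cell.

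Under BMS493 lrata held 14.02, 4.24 and 3.85 normalised counts at 3-S, overlapping DMSO, and 6.46, 13.6 and 33.8 at 8-S, below the DMSO libraries. Neither difference was called: the log2 fold change was -0.95 (95% interval -2.35 to 0.44, adjusted p = 0.892) at 3-S and -1.15 (-2.42 to 0.12, adjusted p = 0.999) at 8-S, by DESeq2. At counts this low a fall of the size seen for dhrs3a would still lie outside the intervals.

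On the log2 scale the DMSO level of each of the 3 enzyme genes sat at a different place between its BMS493 and RA levels. For dhrs3a it lay 62.9% of the way up from BMS493 at 3-S and 68.7% at 8-S. For dhrs3b the position was 27.3% and 21.1%, and for lrata it was 10.8% and 15.6%. These positions are descriptions of fitted values and were not tested against each other.

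**Figure D3:**
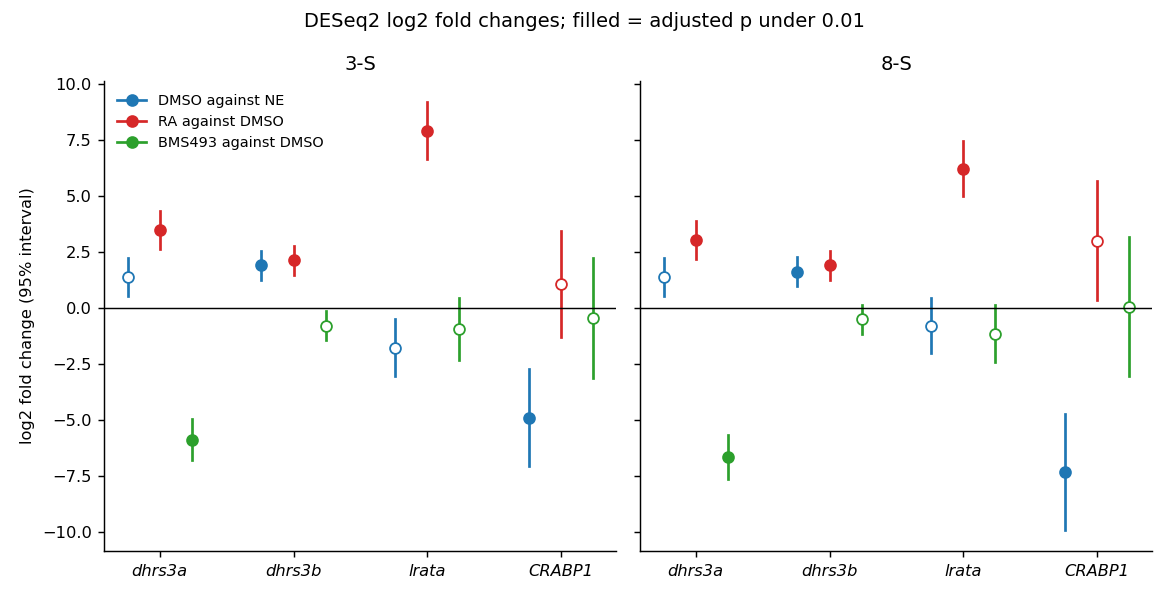
DESeq2 log2 fold changes with 95% intervals (vertical lines) of dhrs3a, dhrs3b, lrata and CRABP1 for DMSO against NE (blue), RA against DMSO (red) and BMS493 against DMSO (green), at 3-S and 8-S; filled points have an adjusted p under 0.01. RA values of the 3 enzyme genes run from 1.90 to 7.90, dhrs3a alone is filled under BMS493, and CRABP1 is filled only for DMSO against NE, at -4.91 and -7.32.

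In DMSO against NE, which compares endoderm with the rest of the same embryos, 2 of the 4 genes were called at each stage, dhrs3b higher and CRABP1 lower, where 7.58% of all genes were called at 3-S and 7.18% at 8-S. dhrs3b was 3.72-fold higher in endoderm at 3-S (NE libraries 717, 566 and 683 normalised counts; log2 fold change 1.90, SE 0.33, adjusted p = 3.34e-07) and 3.05-fold at 8-S (NE libraries 328, 523 and 434; 1.61, SE 0.33, adjusted p = 3.55e-05, DESeq2). dhrs3a was 2.57-fold and 2.60-fold higher in group means, with no overlap between the groups at either stage, yet was not called (log2 fold change 1.36 and 1.38, adjusted p = 0.0186 and 0.0175, DESeq2). That call depended on the fit: with only the libraries of both groups in the model the adjusted p was 0.00188 at 3-S and 2.01e-04 at 8-S, while with single libraries left out it reached 0.132 at 3-S (without NE 3-S replicate 2) and 0.112 at 8-S (without NE 8-S replicate 1).

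lrata was lower in endoderm than in NE in group means at both stages, at 29.4% of the NE mean at 3-S (NE libraries 70.4, 48.7 and 28.9 normalised counts) and 57.5% at 8-S (82.9, 80.5 and 48.2). The groups did not overlap, but neither difference was called (log2 fold change -1.77, adjusted p = 0.058, and -0.80, adjusted p = 0.489, DESeq2). RA endoderm was also set against NE. NE came only from DMSO embryos, so cell type and treatment both differ there, and non-endodermal cells under RA were not measured. RA endoderm exceeded NE by a log2 fold change of 6.13 at 3-S and 5.41 at 8-S (adjusted p = 6.82e-21 and 2.04e-16, DESeq2), and by 4.59 at 8-S without RA 8-S replicate 3.

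CRABP1 was detected mainly in the non-endodermal cells. Its raw counts in NE were 65, 50 and 8 at 3-S and 180, 76 and 118 at 8-S. In DMSO endoderm they were 0, 3 and 1 at 3-S and 1, 1 and 0 at 8-S, near the floor of 3 reads below which a library cannot tell a low level from none. The lowest NE library, with 8 reads, was still above all the DMSO and BMS493 libraries. Scaled for depth, the summed counts in NE were 31.1 times those in DMSO endoderm at 3-S (4 reads; 95% exact interval 11.8 to 116) and 163 times at 8-S (2 reads; 44.8 to 1349), intervals that cover counting error only.

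By DESeq2 the log2 fold change of DMSO against NE was -4.91 at 3-S (SE 1.10, adjusted p = 2.27e-04) and -7.32 at 8-S (SE 1.31, adjusted p = 1.40e-06), at 8-S the second largest of the 514 genes called lower. Counts this low let single libraries move the value: it was -4.29 without DMSO 3-S replicate 1, -6.37 without DMSO 3-S replicate 2 and -6.66 without DMSO 8-S replicate 3, and the call was kept in each case. The CRABP1 mean in DMSO endoderm was 3.41% of the NE mean at 3-S and 0.66% at 8-S, below the 11.8% and 43.7% at which the paraxial mesoderm markers stood in the same libraries and below the 59.6% and 31.7% of the blood and endothelium markers (6 gene IDs).

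CRABP1 stayed low in the endoderm under RA. RA libraries had 0, 2 and 7 reads at 3-S and 2, 3 and 15 at 8-S, and BMS493 libraries 0, 2 and 1, and 0, 0 and 3. Summed RA counts over DMSO counts gave a ratio of 2.26 at 3-S (95% exact interval 0.63 to 10.04) and of 8.43 at 8-S (2.05 to 74.4), the latter on 20 reads of which 15 came from RA 8-S replicate 3. Neither was called (DESeq2 adjusted p = 0.80 and 0.283). At 8-S the RA libraries still lay above DMSO without overlap (log2 fold change 3.00, 95% interval 0.35 to 5.64), so a rise at these low counts was left unsettled. RA endoderm stayed below the NE of DMSO embryos. The DESeq2 log2 fold changes were -3.87 at 3-S (adjusted p = 0.00116) and -4.32 at 8-S (adjusted p = 3.81e-05), and -5.29 and -5.63 without RA replicate 3 of each stage. The 3-S call was lost with edgeR (adjusted p = 0.0143), with the reads of one strand (adjusted p = 0.0168), and without NE 3-S replicate 1 (adjusted p = 0.027), RA 3-S replicate 1 (adjusted p = 0.0118) or RA 3-S replicate 2 (adjusted p = 0.0118).

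With RA set against the other groups directly, 3 of the 4 genes were called in RA against BMS493 at each stage, all higher, where 5.75% and 5.23% of all genes were called and 2.94% and 2.68% called higher, and all 4 were called in RA against NE (9.38% and 8.09% of all genes), with CRABP1 the only one of them lower. The comparison with NE sets RA endoderm against NE of DMSO embryos, so cell type and treatment both differ in it. dhrs3b differed between RA and BMS493 by a log2 fold change of 2.91 at 3-S and 2.40 at 8-S, and lrata by 8.85 and 7.36 (DESeq2 adjusted p at most 1.87e-11). For lrata the value was 9.74 without BMS493 3-S replicate 1, 8.21 without BMS493 8-S replicate 3 and 6.54 without RA 8-S replicate 3. Over the 14 comparisons of 2 groups, 26 of 56 tests were called by DESeq2, and 25 of these also by edgeR in the same direction. The share of all genes called in these comparisons ran from 0.0141% (between stages in NE) to 9.38% (RA against NE at 3-S). The 56 tests reuse the same libraries and are not separate results.

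Between the stages none of the 4 genes was called within any group, where 0.0141% of genes were called in NE, 0.291% in DMSO, 0.0956% in RA and 0.0214% in BMS493. By DESeq2 4 of the 16 tests had an unadjusted p under 0.05, and edgeR called none. Over the whole table the gene IDs with an unadjusted p under 0.05 numbered 773 in NE, 1690 in DMSO, 2281 in RA and 1471 in BMS493. dhrs3b was lower at 8-S without overlap in DMSO (log2 fold change -0.90, adjusted p = 0.22) and in RA (-1.12, adjusted p = 0.0804, the smallest of the 16). It was also lower without overlap in NE (-0.61), as was dhrs3a in RA (-0.82, DESeq2 adjusted p = 0.402). lrata in DMSO was 2.79-fold higher at 8-S, without overlap (adjusted p = 0.418, DESeq2), and CRABP1 in NE was 2.98-fold higher (adjusted p = 1). The strand ratio of the libraries also differed between the stages (values above), and how the libraries were made cannot be separated from stage.

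The RA, BMS493 and endoderm effects were also compared between stages by interaction terms. None of the 12 tests was called by DESeq2 or edgeR and none had an unadjusted p under 0.05; the background was 0.0105% for RA and 0 for the others. The nearest was the RA effect on lrata, smaller at 8-S by a log2 difference of -1.69 (95% interval -3.45 to 0.07, DESeq2). For dhrs3a the RA effect differed by -0.45 (-1.64 to 0.75), so that a loss of 1 log2 unit lies inside the interval. The BMS493 effect on dhrs3a differed by -0.77 (-2.10 to 0.57), in the direction of a larger fall at 8-S. A fall smaller at 8-S by 1 log2 unit, a positive difference, lies outside that interval.

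The order of the group means summarises each gene. For dhrs3a it was RA 3-S, RA 8-S, DMSO 3-S, DMSO 8-S, NE 3-S, NE 8-S, BMS493 3-S and BMS493 8-S, with overlapping ranges between the 2 stages of DMSO, of NE and of BMS493. For dhrs3b the BMS493 and DMSO groups interleaved: DMSO 3-S was followed by BMS493 3-S, DMSO 8-S and BMS493 8-S, where BMS493 3-S, DMSO 8-S, BMS493 8-S and NE 3-S each overlapped the next, and NE 8-S came last without overlap. For lrata the 2 RA groups overlapped each other at the top, followed by NE 8-S, NE 3-S and DMSO 8-S, which overlapped in turn, and then by BMS493 8-S, which did not overlap its neighbour DMSO 8-S, DMSO 3-S and BMS493 3-S, where the last 3 groups overlapped in turn. For CRABP1 NE 8-S and NE 3-S led, and from NE 3-S down every group overlapped the next.

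Other genes of the retinoid pathway, a list of 59 gene IDs, put these values in context. In RA against DMSO 6 of the 53 tested were called higher and 6 lower at 3-S (all genes: 367 and 419 of 19056), and 3 of 48 higher and 7 lower at 8-S (all genes: 171 and 309 of 17935). The median log2 fold change of those tested was -0.05 at 3-S and 0.12 at 8-S, beside 0.02 and 0.04 over all genes. In BMS493 against DMSO 0 of 47 were called higher and 2 lower at 3-S (all genes: 0 and 30 of 17374), and 0 higher and 1 lower at 8-S (all genes: 1 and 64 of 16814). In DMSO against NE 6 of 53 were higher and 8 lower at 3-S (all genes: 829 and 658 of 19616), and 8 of 51 higher and 8 lower at 8-S (all genes: 814 and 514 of 18495). Of the 55 calls in the list 30 stood under every setting and left-out library tried, 23 were lost without at least 1 single library, and 20 were lost with edgeR.

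Among enzymes that clear RA, CYP26A1 and CYP26B1 rose under RA with log2 fold changes of 4.37 and 6.07 at 3-S and of 3.16 and 5.75 at 8-S, while CYP26C1 fell (-7.22 and -5.26; DESeq2 adjusted p at most 6.19e-15 for the 6 tests). CYP26A1, which like dhrs3a rose under RA, had 1464 ± 265 normalised counts in BMS493 and 1517 ± 257 in DMSO at 3-S (SD, n = 3), a log2 fold change of -0.05 that was not called. ALDH1A2, which makes RA from retinaldehyde, was lower in endoderm than in NE (-2.21 and -2.95) and rose under RA (2.44 and 2.16, the latter not called by edgeR). RDH10, which oxidises retinol, fell under RA at 8-S (-1.77, DESeq2 adjusted p = 6.80e-06).

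Among genes of retinol uptake and storage, STRA6, a membrane receptor that takes up retinol, was lower in endoderm than in NE (log2 fold change -5.52 at 3-S and -3.60 at 8-S), as were RPE65, which acts on retinyl esters in the eye, and the lipase LPL, though the 8-S call of RPE65 was lost with edgeR and without 3 of the 6 single libraries. LPL alone of this group was called under RA (1.30 at 3-S, adjusted p = 0.0034, DESeq2), a call lost with edgeR and in 4 of the 6 fits that each left out 1 library of the groups compared. CRABP2, the other cytoplasmic RA-binding protein, was also lower in endoderm (-2.06 and -1.39, the 8-S call lost with edgeR and in 4 of 6 left-out fits) and fell under RA at 3-S (-2.24, adjusted p = 3.97e-06). It stood at 258 ± 63.7 normalised counts (SD, n = 3) in DMSO endoderm at 3-S, whereas CRABP1, at the counting floor there, could not have shown a fall.

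Among receptors and cofactors, raraa rose under RA at 3-S (log2 fold change 1.35), while rarab (-1.87 and -1.35) and the RARG copy ENSDARG00000034117 (-6.22 and -5.39) fell at both stages. The 8-S call of rarab was lost with edgeR and in 5 of 6 left-out fits. The corepressor genes nrip1b (-2.14 at 3-S, -1.44 at 8-S) and NRIP1 (-2.79 at 3-S) were the listed genes that fell with dhrs3a under BMS493, and NRIP1 also passed the test under RA at 3-S (1.97, DESeq2 adjusted p = 0.00491). The RA call of NRIP1 was lost in 6 of 6 left-out fits, its BMS493 call and the 8-S call of nrip1b in 4 of 6 each, and all 3 with edgeR, while the 3-S call of nrip1b was kept throughout.

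**Figure D4:**
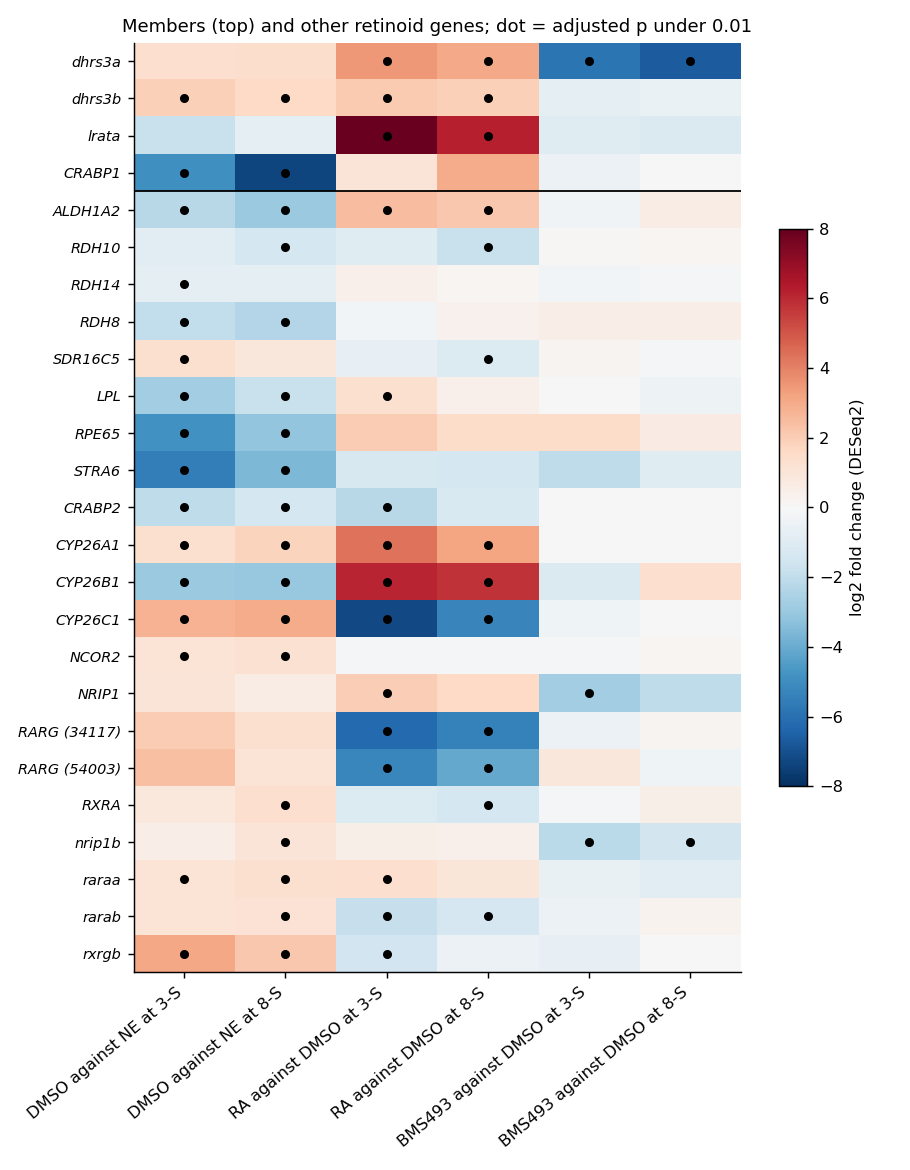
DESeq2 log2 fold changes (colour, red higher and blue lower in the first group) of dhrs3a, dhrs3b, lrata and CRABP1 (top) and of the other retinoid genes called in at least 1 comparison, in 6 comparisons (columns); a dot marks an adjusted p under 0.01. dhrs3a has dots under both RA and BMS493, lrata under RA only, and few dots fall in the BMS493 columns. RARG copies are told apart by the last digits of their gene IDs.

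The RA libraries also held fewer reads of paraxial mesoderm and neural plate markers. The paraxial mesoderm and tailbud markers summed to 46.0 to 103 normalised counts in RA at 3-S against 840 to 1416 in DMSO, and to 131 to 233 against 4160 to 5558 at 8-S, with 2 of the 7 gene IDs called lower at each stage. The neural plate markers summed to 1121 to 1628 against 4304 to 5148 at 3-S and 2377 to 3616 against 6970 to 7571 at 8-S. Of the 12 neural plate gene IDs 3 were called lower and 1 higher at 3-S, and 4 lower and 0 higher at 8-S. Other lists varied. The notochord markers averaged 15094 normalised counts in RA and 5995 in DMSO at 3-S and 14374 and 7998 at 8-S, with overlapping ranges at both stages. The epidermis markers averaged 1413 and 3362 at 3-S and 4399 and 2792 at 8-S, also with overlapping ranges at both stages. Their 3-S mean in DMSO rested on replicate 1, at 7129, with replicates 2 and 3 at 1548 and 1409. The blood and endothelium markers averaged 1887 and 2240 at 3-S and 2116 and 2609 at 8-S, with overlapping ranges. The Kupffer's vesicle list, of 1 gene ID, averaged 9.45 and 302 at 3-S and 8.37 and 1401 at 8-S. It was called lower by DESeq2 at both stages. The matched endoderm markers were not called in RA or in BMS493 against DMSO at either stage, with all 3 gene IDs tested. The listed marker gata6, which had no match here, was reported by the study as raised by RA and lowered by BMS493 at 3-S. The part of these shifts in the members' values was not tested. Against NE, which came from DMSO embryos, the mean of lrata in RA endoderm was 70.1 times its NE mean at 3-S and 42.6 times at 8-S. For dhrs3a and dhrs3b the RA means were 28.5 and 16.1 times the NE means at 3-S, and 21.1 and 11.4 times at 8-S.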

How the data were processed

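The deposited files hold, per the labels, read counts per gene made by the authors with STAR 2.5.4, and the build named in the submitters' processing notes is Zv9. Each library was reverse transcribed with oligo-dT and tagmented (Nextera XT), so strand is not marked and the unstranded counts were used; both strands' counts together gave 100.0% of them for the 4 genes. Unmapped reads and reads outside genes, in more than 1 place or ambiguous (21.3% to 35.7% per library together) were left out, so reads shared by near-identical copies are lost. Counts were fitted with DESeq2 1.42.0 (R 4.3.3; Wald test, all 24 libraries, 1 term per group, default filtering), with Benjamini-Hochberg adjustment over the whole table and a call at adjusted p under 0.01. The fits were tested on simulated data.

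The members, lists and tests were chosen with earlier results of these data known. Named were the 4 genes, the listed pathway genes called in a comparison with DMSO, and, for each member, the 3 genes of highest Pearson r with at least 50 normalised counts on average. Gene names cover 65.0% of IDs, from the study and a name table. No sequence of these genes was used here.

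Alternatives were edgeR 4.0.16, TMM scaling, total-count scaling without the gene with most reads, other filters (none, or a mean of 10 counts), each strand's counts, only the groups compared, a replicate block, pseudocounts of 0.5 and 5 for the copy ratio, and leaving out each library. The gene left out of the totals (ENSDARG00000080337) took 15.5% to 32.6% of the reads in genes per library. Same-numbered DMSO and NE libraries deviated together over 12443 genes (r of 0.69, 0.59 and 0.48 at 3-S and 0.23, 0.22 and 0.37 at 8-S). Both were sorted from DMSO embryos, and the replicate numbers were taken to pair these groups. Replicates of a group differed by far more than sampling noise (chi-square per degree of freedom 17.5 to 160).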

Additional observations from a re-analysis of the deposited data

How the results depend on the processing

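Calls of the enzyme genes under RA, of dhrs3a under BMS493, and of dhrs3b and CRABP1 in DMSO against NE stood under every alternative run. The dhrs3a difference between DMSO and NE passed the threshold at 3-S with the reads of one strand (1.27) or the other (1.46), with only the groups compared (1.38), and without NE 3-S replicate 1, the left-out range being 1.15 to 1.64; at 8-S it passed with total-count scaling (1.46), each strand (1.36 and 1.37) and only the groups compared (1.42). With 3 counts or fewer per library, CRABP1 in BMS493 against DMSO changed sign: to 0.85 at 3-S and -0.37 at 8-S on one strand, to -0.40 at 8-S under the block, and over left-out libraries it ran from -1.54 to 1.004 at 3-S and from -2.05 to 0.59 at 8-S; in RA against DMSO at 3-S it ran from -0.37 to 2.504. The cause of these changes was not tested.

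Other uncalled values that changed sign were, for CRABP1 between stages, 0.19 in DMSO with one strand and 0.60 in BMS493 with the other, with left-out ranges of -1.46 to 0.62 in DMSO, -0.19 to 2.54 in RA and -2.43 to 0.21 in BMS493; for lrata between stages in RA, -1.02 to 0.26; for the stage difference of the BMS493 effect, -1.22 (one strand) and -1.59 to 1.61 for CRABP1, 0.40 (the other strand) and -1.04 to 0.69 for lrata, and -0.070 to 0.52 for dhrs3b; for that of the RA effect on dhrs3b, -0.46 to 0.081; and for that of the endoderm effect on dhrs3a, -0.088 (one strand), -0.029 (replicate block) and -0.27 to 0.25. The copy ratio of NE against DMSO at 8-S ran from -0.089 to 0.44 (without DMSO 8-S replicate 2 at the low end).

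Counts of called genes were lower with edgeR: 453 for 786 in RA against DMSO at 3-S and 260 for 480 at 8-S, 17 for 30 and 23 for 65 in BMS493 against DMSO, 697 for 1096 and 618 for 967 in RA against BMS493, 775 for 1328 in DMSO against NE at 8-S (815 to 1218 with a library left out), and 0 in each comparison of stages and for the RA interaction. Between stages the counts were 3 in NE (39 with only the groups compared; 0 to 4 with a library left out), 44 in DMSO (28 and 19 with single strands; 9 to 42), 15 in RA (5 without independent filtering, 9 and 4 with single strands, 8 with the block; 2 to 37) and 3 in BMS493 (7 with one strand, 1 with the groups compared; 0 to 34). For the interactions they were 2 for RA (0 with either strand, 1 with the groups compared, 16 with the block; 0 to 7), 0 for BMS493 (1 with the mean of 10 counts, 4 with the block; 0 to 2; 817 genes at an unadjusted p under 0.05) and 0 for endoderm (21 with the groups compared, 6 with the block; 0 to 3; 698 genes).

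The replicate block, which pairs DMSO with NE, changed no call of the 4 genes; in DMSO against NE it gave 1.42 for dhrs3a at 3-S and 1517 called genes for 1487. In every other comparison at least 1 same-numbered pair of libraries correlated at under 0.1. Other pairs ran higher, up to 0.58 for replicate 3 of BMS493 between the stages. Whether replicate numbers pair libraries in those comparisons was not settled. Some settings gave CRABP1 no adjusted p.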

Other observations

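Gene IDs that share a family with the 4 genes, named after their values were seen, did not follow them. lratb.1 (ENSDARG00000096594), another lrat copy, held 687, 320 and 366 normalised counts in DMSO and 36.8, 233 and 104 in RA at 3-S. Its log2 fold change was -1.87 (adjusted p = 0.0138, DESeq2) at 3-S and -1.61 (adjusted p = 0.0672) at 8-S, where RA libraries held 437, 118 and 116 and DMSO libraries 897, 505 and 650. lratb.2 (ENSDARG00000077652) had values of -1.38 (adjusted p = 0.143) and -1.93 (adjusted p = 0.0291). None of these was called, but RA lay below DMSO without overlap for lratb.1 at both stages, where lrata was 238-fold and 74.1-fold higher. The second ID with the symbol CRABP1 (ENSDARG00000045926) had 18, 2 and 1 reads in DMSO at 8-S and 4, 0 and 0 at 3-S, and 0 reads in all the NE libraries, which allows up to 3 reads in each; DESeq2 gave it no adjusted p.

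Over the 24 libraries, the genes whose log2(normalised count + 1) was most like a member's among 9976 genes differed by member; as a description, r also carries the group means that all genes share. For dhrs3a they were slc22a3 (Pearson r = 0.95), hoxc1a (0.95) and foxg1b (0.93), which were likewise high in RA and low in BMS493: slc22a3 averaged 3822 normalised counts in RA, 274 in DMSO and 8.70 in BMS493 at 3-S. For dhrs3b they were kitlga (0.97), RASGEF1B (0.96) and OSR1 (0.93), and for lrata RBPMS2 (0.96), ENSDARG00000001784 (0.94) and BMI1 (0.93), with RBPMS2 at 3361 in RA and 72.6 in DMSO at 3-S. For CRABP1 they were LMO2 (0.92), a blood and endothelial regulator that is one of the blood markers used, ENSDARG00000077369 (0.91) and THBS4 (0.89), all highest in NE at 8-S. No gene appeared in more than 1 of the 4 lists.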
